A study of Mus musculus with 6 samples.

Results

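The SR proteins are splicing factors that carry a domain rich in arginine and serine, and their genes were described here in macrophages grown from the bone marrow of mice exposed to cigarette smoke or to room air. The 10 genes were Srsf1, Srsf2, Srsf3, Srsf4, Srsf5, Srsf6, Srsf7, Srsf9, Srsf10 and Srsf11, chosen by name, and each was found in a single row of the authors' deposited table of 19386 genes. Splicing events were added when they lay wholly inside a member gene on its strand, which gave 65 of the 10376 events that the program JuncBASE listed, 19 of them among its 3305 retained introns. A further 9 of the 3887 retained introns in the authors' deposited rMATS table lay in these genes.

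The 6 libraries formed 2 groups of 3, room air and cigarette smoke. All mice were wild type and of the C57BL/6 strain, and the macrophages of both groups were grown with medium from L929 cells, the source of their growth factor, and harvested on day 11. Whole animals were exposed, and the RNA came from cells that had since been in culture for those 11 days without a stated further exposure. The labels give neither the age of the mice nor the length of the exposure. They also do not say that the numbered libraries of a group came from separate mice. The p-values computed here for splicing events therefore measure only the spread between these 6 libraries. The authors' p-values for expression rest on a spread fitted over 24 libraries, of which 18 are not analysed here.

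An SR protein binds short sequences in an exon through its RNA recognition motif and recruits the splicing machinery through its arginine and serine domain, whose phosphorylation by the CLK and SRPK kinases governs where the protein sits in the cell and how active it is. Most SR genes also control their own messenger RNA. When the protein is abundant, a poison exon with an early stop codon is spliced in, or an intron is kept or spliced in the untranslated end, and the product stays in the nucleus or is degraded by nonsense-mediated decay. The level of such a form is therefore read here beside the level of the gene itself.

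The sequences below show why each of 4 cassette exons is called a poison exon: read in the frame of the coding exons before it, the exon reaches a stop codon, in capitals, before its end. They are copied from GENCODE M21 transcripts on the build GRCm38, 5′ to 3′ from the first base of the exon to the stop. In Srsf3 the exon is chr17:29039454-29039909, 456 nucleotides within intron 3, plus strand. In Srsf6 it is chr2:162932815-162933082, 268 nucleotides within intron 2, plus strand. In Srsf7 it is chr17:80204622-80205081, 460 nucleotides within intron 3, minus strand. In Srsf11 it is chr3:158023243-158023359, 117 nucleotides within intron 3, minus strand. In all 4 genes the stop that was found is the end of the coding region of an annotated nonsense-mediated decay transcript.
Srsf3 poison exon: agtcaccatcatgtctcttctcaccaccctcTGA
Srsf6 poison exon: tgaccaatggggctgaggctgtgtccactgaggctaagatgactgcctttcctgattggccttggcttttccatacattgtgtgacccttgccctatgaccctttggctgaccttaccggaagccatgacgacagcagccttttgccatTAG
Srsf7 poison exon: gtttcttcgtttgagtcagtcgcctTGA
Srsf11 poison exon: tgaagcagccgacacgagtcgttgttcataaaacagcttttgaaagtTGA

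The next sequences are the starts of 4 retained introns of the coding part in which no smoke library reached the room air levels, again up to the stop codon that ends the reading frame when the intron stays in the message. Capitals mark the bases at which the intron begins and the stop codon. They are Srsf5 intron 5 (chr12:80947866-80949094, plus strand, 1229 nucleotides), Srsf7 intron 3 (chr17:80204388-80205261, minus strand, 874 nucleotides), Srsf10 intron 2 (chr4:135858410-135861773, plus strand, 3364 nucleotides) and Srsf11 intron 3 (chr3:158022951-158026724, minus strand, 3774 nucleotides). Intron 2 of Srsf10 begins with AT where the others begin with GT, the start known from the AT-AC introns that the minor spliceosome removes. Srsf1 intron 2, Srsf2 intron 1, Srsf6 intron 2 and Srsf10 intron 5 also had all smoke values below all room air values. Their starts are not printed.
Srsf5 intron 5 start: GTttgtTGA
Srsf7 intron 3 start: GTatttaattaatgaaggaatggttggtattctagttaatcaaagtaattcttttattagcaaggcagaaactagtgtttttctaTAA
Srsf10 intron 2 start: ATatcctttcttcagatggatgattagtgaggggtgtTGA
Srsf11 intron 3 start: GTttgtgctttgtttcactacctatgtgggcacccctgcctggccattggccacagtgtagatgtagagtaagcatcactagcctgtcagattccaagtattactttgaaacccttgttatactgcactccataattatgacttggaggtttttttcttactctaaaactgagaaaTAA

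The libraries were unequal in the splicing table. Cigarette smoke replicate 1 had no value in 4169 of the 10376 events, against 1 to 398 in the other 5 libraries, and 7 of the 65 member events had no value in it. The reads behind each level are unknown here, so a level of 0% says only that no included form was counted. The macrophage markers were present, with all 10 listed and group means from 401.3 to 23168 normalized counts in the room air group and from 348.1 to 24772 in the smoke group, per the authors' deposited table. Of the markers of other cells, 4 of 9 neutrophil, 3 of 6 B cell, 1 of 4 T cell, 1 of 4 erythroid and 3 of 4 dendritic genes were listed there, with summed means of at most 28.97 normalized counts in either group. All 5 stromal genes were listed, and their summed mean was 44.5 normalized counts with room air and 7.78 after smoke. The part of these cells in the results below was not tested.

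Of the 10 SR genes, Srsf11 alone passed the authors' threshold for expression, and it was lower after cigarette smoke. An adjusted p under 0.05 was given to 1 of 10 members in the authors' deposited table, beside 7.69% of the 12082 genes tested, of which 3.53% were lower and 4.15% higher after smoke. A share of 1 in 10 is near that background. The 10 fold changes ran from 0.71 to 1.23 as ratios of the group means, 6 below 1 and 4 above, beside 50.3% of all tested genes with a lower level. The median log2 fold change of the members was -0.11, against -0.0029 over all genes tested. Expression is available only as the mean of 3 libraries in a group, in normalized counts, with a standard error from the authors' fit to 24 libraries, so single libraries cannot be shown. In RNA from whole cultures, fewer cells of a type and less RNA per cell cannot be told apart.

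Srsf11, a relative of the SR family that acts with the U2 auxiliary factor at the 3′ splice site (ENSMUSG00000055436.18, chr3:158010473-158036639, minus strand), had a group mean of 864.2 normalized counts with room air and 610.3 after smoke. In the authors' deposited table it fell by 0.50 on the log2 scale (SE 0.14, adjusted p 0.0142, DESeq2). With the dependence of all fold changes on the GC content and length of transcripts taken out, Srsf11 had a log2 fold change of -0.43 and an adjusted p of 0.104. Its call was lost in that setting, while the direction stayed. Gm43362, a gene on the same strand, lies inside the locus, and its reads may be hard to separate from those of the introns of Srsf11.

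Srsf5, first known as a gene induced in regenerating liver, had the highest room air level per kb of merged exons, 387.5 normalized counts. Per kb of the longest transcript, 3482 nucleotides in Srsf5 and 1899 in Srsf2, Srsf2 lies above it. Its group mean was 1545.3 normalized counts with room air and 1124.1 after smoke, the second largest relative difference of the 10. The authors' deposited table gave Srsf5 a log2 fold change of -0.45 (SE 0.18, adjusted p 0.092), which misses the threshold. With the GC and length trend removed it was -0.26, with an adjusted p of 0.649. The 95% interval of the deposited fold change, 0.57 to 0.93 as a ratio, lies below 1, as does that of Srsf11 at 0.58 to 0.86.

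Srsf9, the shortest of these genes by exon length, differed in the other direction. Its group mean was 140.4 normalized counts with room air and 172.3 after smoke, and the authors' deposited table gave a log2 fold change of 0.33 (SE 0.14, adjusted p 0.138). Its interval, 1.03 to 1.52 as a ratio, was the only one of the 10 to lie above 1, and no splicing event of this gene was listed. With the GC and length trend removed, Srsf9 had 0.17 on the log2 scale and an adjusted p of 0.762. Srsf4, likewise without an event, had means of 208.2 and 226.8 normalized counts in the authors' deposited table and there a log2 fold change of 0.12 (SE 0.12, adjusted p 0.628), or 0.010 without the trend. Antisense and overlapping transcripts are annotated at the Srsf4 locus.

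The members that also carry messenger RNA out of the nucleus, Srsf1, Srsf3 and Srsf7, had small differences that did not pass the threshold. In the authors' deposited table Srsf1 had means of 1006.5 and 924.1 normalized counts with room air and after smoke and a log2 fold change of -0.12 (SE 0.12, adjusted p 0.605). Srsf3 had means of 683.2 and 636.1 and a log2 fold change of -0.10 (SE 0.11, adjusted p 0.643) there. Srsf7 had means of 206.5 and 239.7 and a log2 fold change of 0.20 (SE 0.16, adjusted p 0.477). With the GC and length trend removed, Srsf1 and Srsf3 changed sign, to 0.16 and 0.11 on the log2 scale, and Srsf7 had 0.28.

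Srsf2, which stays in the nucleus and marks the splicing speckles, was the closest to equal. Its means were 929.9 normalized counts with room air and 948.4 after smoke, and the authors' deposited table gave a log2 fold change of 0.03 with a 95% interval of -0.22 to 0.28 and an adjusted p of 0.927. Removal of the trend turned that value to -0.11. Srsf6 had means of 777.4 and 685.9 normalized counts and in the same table a log2 fold change of -0.17 (SE 0.12, adjusted p 0.417). Srsf10, which represses splicing when it loses its phosphates, had means of 575.4 and 490.9 and a log2 fold change of -0.23 (SE 0.14, adjusted p 0.328). Without the trend the values of Srsf6 and Srsf10 came down to -0.034 and -0.042.

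**Figure D1:**
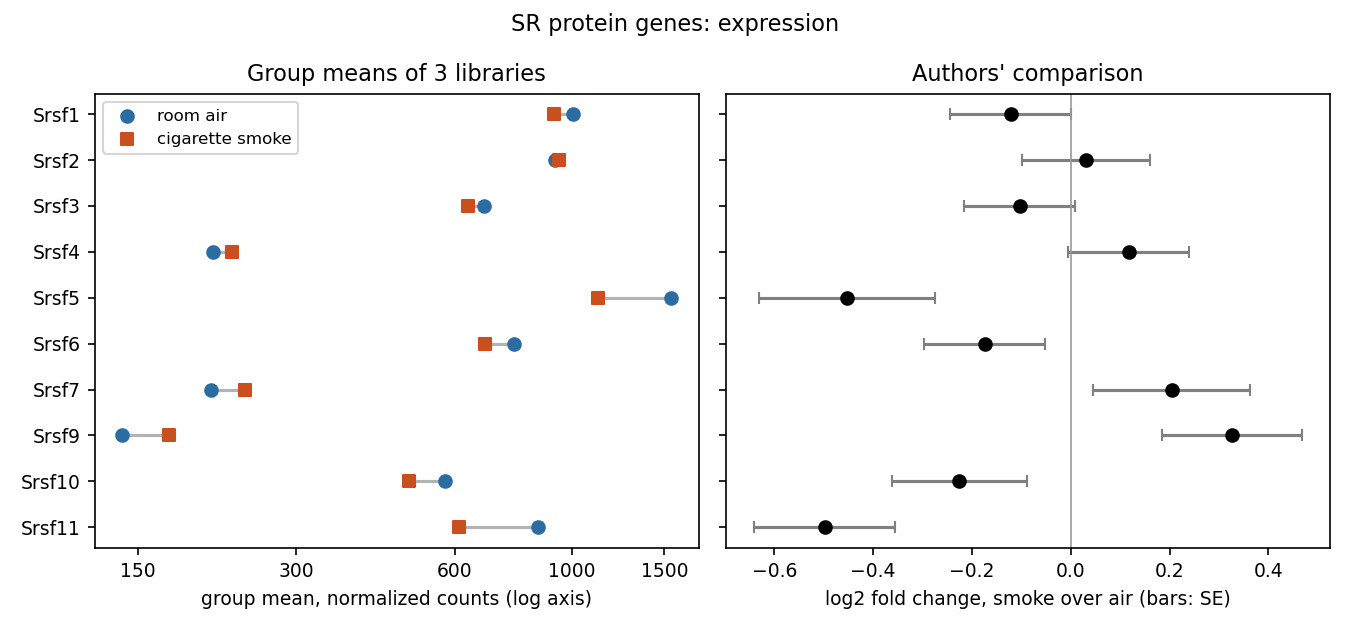
Expression of the 10 SR genes from the authors' deposited table. The left panel gives the mean of 3 libraries in room air (circles) and in cigarette smoke (squares) in normalized counts on a log axis, and the right panel the log2 fold change with its standard error; Srsf11 at -0.50 and Srsf5 at -0.45 lie farthest to the left and Srsf9 at 0.33 farthest to the right.

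Room air levels were also divided by the length of the merged exons of all annotated transcripts, decay and retained intron forms among them. In normalized counts per kb, the highest were Srsf5 (387.5), Srsf2 (314.4), Srsf1 (176.3), Srsf6 (161.6) and Srsf11 (102.3). Below them came Srsf3 (86.5), Srsf9 (85.0), Srsf10 (82.2), Srsf4 (58.5) and Srsf7 (58.2). The merged length was 8446 nucleotides in Srsf11 and 7899 in Srsf3, against 3106 and 2618 in their main transcripts. In Srsf1 it was 5710 against 5362. The order depends on this choice, and by main transcript length Srsf11 and Srsf3 lie above Srsf6 and Srsf1. No spread over libraries is known for these levels, so neighbours such as Srsf3, Srsf9 and Srsf10 are not ranked against each other here. The transcripts of the 10 genes had a median GC content of 42.2%, against 49.4% over the genes tested. After the trend of fold change with GC content and length was removed, the median log2 fold change of the members was -0.01, as it was over all genes.

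Among the genes that modify or work with SR proteins, those that passed the threshold were mostly lower after smoke. These lists were chosen with earlier results of these data known, so their counts are a description only. Of the SR kinases, 2 of 8 tested had an adjusted p under 0.05 in the authors' deposited table, beside 7.69% of all genes (3.53% lower and 4.15% higher), both lower: Prpf4b, a kinase of the spliceosome, at -0.71 on the log2 scale (SE 0.16, adjusted p 0.000761), and Clk1, which phosphorylates SR proteins in the nucleus, at -0.68 (SE 0.17, adjusted p 0.00508). The median log2 fold change of these kinases was -0.30, and -0.14 with the GC and length trend removed. Of 27 other SR and SR-like proteins tested, 9 were lower and 1 higher at the threshold, with a list median of -0.27, and -0.19 with that trend removed.

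The lower genes of that list in the authors' deposited table were Pnisr (-0.99, SE 0.17, adjusted p 1.42e-05), Rsrp1 (-0.77, SE 0.13, adjusted p 1.24e-05), Luc7l3 (-0.70), Pnn (-0.59), Ppig (-0.59), Srek1 (-0.59), Luc7l2 (-0.55), Rsrc2 (-0.54) and Bclaf1 (-0.47), all as log2 fold changes. Rnps1, a part of the exon junction complex, was the higher gene at 0.46 (SE 0.13, adjusted p 0.0123). None of the 4 transport genes tested passed the threshold, and the list median was 0.06. Of 14 genes for nonsense-mediated decay, the kinase Smg1 passed it, at -0.49 (SE 0.13, adjusted p 0.00929), a share near that of all genes, and the list median was 0.03. With the GC and length trend removed, only Rsrp1 (adjusted p 3.34e-05) and Pnisr (adjusted p 0.00197) of all these genes kept an adjusted p under 0.05, and the other calls were lost.

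Splicing levels were available for each library, as the percent of reads that support the included form or the retained intron. Introns of the coding part of SR genes were kept less in the cigarette smoke libraries, by about 9 percentage points on average, while those after the stop codon went both ways and had nearly equal means. No test was made of these means over members. The mean over the 12 introns of the coding part with a value in all libraries was 28.9%, 32.2% and 25.8% in the room air libraries and 17.9%, 20.0% and 21.6% in the smoke libraries, each in the order of their replicate numbers, as in all such lists here. The groups did not overlap, with 28.9% ± 3.20 (SD, n = 3) in room air and 19.8% ± 1.89 (SD, n = 3) in cigarette smoke. The 4 introns after the stop codon had a mean of 66.7% ± 1.92 (SD, n = 3) and 66.3% ± 2.00 (SD, n = 3).

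Lower retention after smoke was a feature of the whole table. Over 1992 introns with a value in every library the mean was 15.7% ± 0.978 (SD, n = 3) in room air and 11.4% ± 1.28 (SD, n = 3) in cigarette smoke, so the smoke level was 73.0% of the room air level. Over the 17 introns of SR genes with all values it was 36.7% ± 2.48 (SD, n = 3) and 29.9% ± 2.05 (SD, n = 3), which makes the smoke level 81.5% of the room air level. Over the 12 in the coding part alone the smoke level was 68.5% of the room air level. Coding part introns of all genes were not taken separately, so that value has no like background. The mean was lower after smoke in 17 of the 19 member introns, beside 89.9% of all introns, a share near that background. In 12 of the 19 every smoke value lay below every room air value, beside 34.7% of all introns. Member introns had a higher mean level than all introns, and no share was taken at a like level. No excess in SR genes is therefore read from this. Without cigarette smoke replicate 1 these counts were again 17 and 12, beside 87.8% and 37.1% of all introns. The part introns listed for Srsf2, Srsf5 and Srsf10 lie within whole introns that were also counted, so the 19 are not independent.

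**Figure D2:**
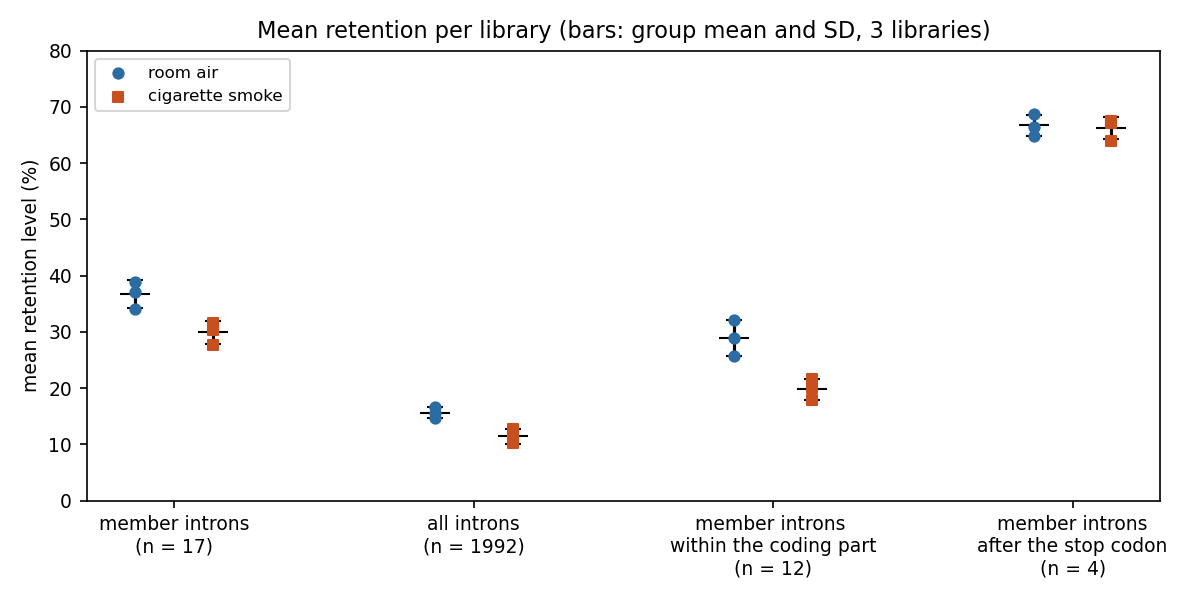
Mean retention level in each library, in percent, over the introns of SR genes, over all introns, and over the SR gene introns within the coding part and after the stop codon. Circles are room air and squares cigarette smoke, with the mean and SD of 3 libraries; the coding part introns have 28.9% and 19.8% as group means, and those after the stop codon 66.7% and 66.3%.

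No single JuncBASE event of these genes was called between the groups. With limma on the log2 odds of inclusion, fitted over all 10376 events and adjusted by Benjamini-Hochberg, none of the 65 member events had an adjusted p under 0.05 (0 members called), as in the table as a whole (0%), and the lowest adjusted p of a member was 0.305. By an unadjusted p under 0.05, 4 member events passed, beside 10.8% of all events, and 0 passed by the corrected p that the authors deposited. Leaving out cigarette smoke replicate 3 raised the limma calls to 2 member events, Srsf2 intron 1 (adjusted p 0.0403) and Srsf3 intron 4 (adjusted p 0.0455), beside 12% of the 5982 events tested in that setting. In simulated levels for as many events, 200 were shifted and the rest were not. The limma test recovered 0% of those shifted by 2 log2 odds and 90.0% of those shifted by 4. At a shift of 4 it also called 12 unshifted events.

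Srsf11 had the largest difference in retention of the member introns in percentage points. Its intron 3, 3774 nucleotides long and the home of its poison exons, was retained at 35.3%, 45.0% and 30.3% in room air and at 9.09%, 16.7% and 17.5% in cigarette smoke. Every smoke library was lower than every room air library. The means of 36.9% ± 7.48 (SD, n = 3) and 14.4% ± 4.64 (SD, n = 3) gave a difference in log2 odds of -1.77 (SE 0.53) with a limma p of 0.0134 and an adjusted p of 0.305.

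The poison exon of 117 nucleotides in the same intron was included at 31.2%, 21.4% and 17.9% in room air and at 0%, 16.7% and 10.8% in cigarette smoke. The groups did not overlap, though the lowest room air value and the highest smoke value were close together, and the difference in log2 odds was -2.26 (SE 1.17, adjusted p 0.513, limma). Without cigarette smoke replicate 1, the library at 0%, that difference was -0.90, and with a pseudocount of 5 percentage points it was -1.46. The form with this exon and the one of 109 nucleotides beside it was rare in both groups, with 8.33%, 8.33% and 4.17% in room air and 9.09%, 0% and 10.8% in cigarette smoke. Those groups overlapped, and the sign of their difference turned when cigarette smoke replicate 2 was left out.

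A pair of minor splices of Srsf11 stayed low in both groups. The splice from exon 10 to the short form of exon 12, known from a non-coding transcript, had 4.48%, 1.60% and 3.25% in room air and 0%, 0% and 6.59% in cigarette smoke. An acceptor inside intron 7, singled out after its values were seen because the groups did not overlap, had 10.0%, 6.25% and 7.25% in room air and 0%, 5.00% and 2.78% in cigarette smoke. Counted from junction reads alone the same acceptor had 12.2%, 4.76% and 8.57% in room air and 0%, 5.00% and 4.11% in cigarette smoke, with overlapping groups. None of these passed the limma test, with adjusted p of 0.624, 0.476 and 0.514.

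Srsf7 had a retained intron and a poison exon in the same place, intron 3. Retention of the intron was 36.0%, 45.5% and 33.3% in room air and 30.0%, 20.7% and 25.9% in cigarette smoke. The smoke libraries were all lower, with a difference in log2 odds of -0.84 (SE 0.48, adjusted p 0.525, limma). The direct splice that leaves the poison exon out made up 43.2%, 34.6% and 42.4% of the donor choices in room air and 50%, 67.7% and 53.3% in cigarette smoke, the only one of the 46 events that are not retained introns in which all smoke libraries lay above all room air libraries, beside 6.34% of such events in the table. It was singled out after its values were seen, and its adjusted p was 0.509. From junction reads alone the same splice had 88.9%, 94.7% and 96.6% in room air and 100% and 95.2% in the smoke libraries with a value, replicates 2 and 3, so that the level and the gap between the groups both depend on the measure.

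The poison exon of Srsf7 itself was counted in 3 ways that share reads. By its donor together with reads inside the exon, it had 48.7%, 55.8% and 30.3% in room air and 35.7%, 20.6% and 33.3% in cigarette smoke. By the junction into the exon it had 11.1%, 14.3% and 6.67% in room air and, in cigarette smoke replicates 2 and 3, 0% and 4.76%, with no value in replicate 1. By the junction out of it the values were 11.1%, 5.26% and 0% in room air and 0% and 2.38% in the same 2 smoke libraries. The levels differ with the measure. The junction into the exon had a difference in log2 odds of -2.36 (SE 0.92, limma p 0.0458, adjusted p 0.451), or -1.26 with a pseudocount of 5 percentage points, and its groups did not overlap, while those of the other measures did.

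A longer form of Srsf7 intron 5 gave no steady difference. It was retained at 9.09%, 14.7% and 5.13% in room air and at 13.3%, 4.76% and 8.51% in cigarette smoke, and the sign of its small difference turned without room air replicate 2 and without cigarette smoke replicate 2.

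Srsf6, whose messenger RNA holds a poison exon in intron 2, showed the same layout. Intron 2 was retained at 38.7%, 42.6% and 34.5% in room air and at 21.4%, 31.6% and 27.0% in cigarette smoke, without overlap and with a difference in log2 odds of -0.78 (SE 0.46, adjusted p 0.528, limma). The poison exon was included at 34.5%, 43.8% and 30.8% in room air and at 26.7%, 35.0% and 30.3% in cigarette smoke. Its groups overlapped, and the difference in log2 odds was -0.36 (SE 0.47, adjusted p 0.724, limma), or -0.13 without room air replicate 2.

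The poison exon of Srsf3 was included at 28.6%, 33.0% and 23.7% in room air and at 24.1%, 24% and 25.0% in cigarette smoke. The smoke libraries were within 1 percentage point of each other and inside the room air range, and the difference in log2 odds was -0.28 (SE 0.44, adjusted p 0.769, limma), or -0.13 without room air replicate 2. Intron 3 of Srsf3, which holds this exon, was retained at 6.78%, 15.4% and 7.02% in room air and at 4.35%, 7.32% and 6.40% in cigarette smoke, far less than the introns that hold the poison exons of Srsf6, Srsf7 and Srsf11. Its intron 4 had 2.13%, 5.41% and 3.19% in room air and 0%, 0% and 5.10% in cigarette smoke. Cigarette smoke replicate 3 was inside the room air range, and the call on this intron appeared only without that library.

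Of the 13 annotated exons that lie within an intron of a member and are used as such only by decay or non-coding transcripts, 11 are in nonsense-mediated decay transcripts, and they fall in 6 genes. Events were listed for those of 4 genes, Srsf3, Srsf6, Srsf7 and Srsf11, and none for those of Srsf4 and Srsf9, while the exon within intron 2 of Srsf10 was likewise without an event. Unlike the poison exons of Srsf3, Srsf7 and Srsf11, that of Srsf6 overlaps an exon of a fully coding transcript. Of the 6 cassette and coordinated cassette events in members, 5 had a lower mean after smoke, beside 55.9% of all such events. The 6 are not independent, as the Srsf11 exon of 117 nucleotides is in a cassette event and in the coordinated one. That coordinated event differed by only -0.31 percentage points. Another Srsf11 cassette had a mean of 100% in room air and 97.5% after smoke, the latter from 2 libraries. No excess is read from this count.

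**Figure D3:**
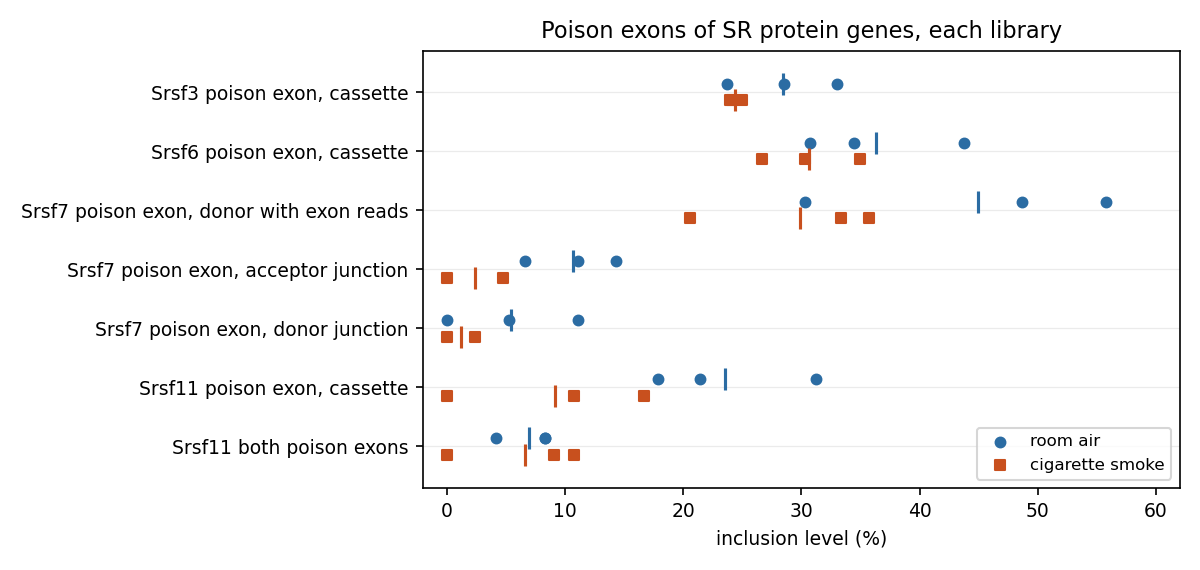
Inclusion level of the poison exons of Srsf3, Srsf6, Srsf7 and Srsf11 in each library, in percent. Circles are room air, squares cigarette smoke and vertical marks the group means; the Srsf11 cassette has 17.9% to 31.2% in room air and 0% to 16.7% in cigarette smoke, while the ranges of Srsf3 and Srsf6 overlap.

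Srsf5 held the intron with the highest whole-intron retention in the coding part. Intron 5, 1229 nucleotides, had 55.2%, 48.0% and 42.2% in room air and 29.4%, 35.8% and 36.8% in cigarette smoke. The groups did not overlap, at 48.5% ± 6.54 (SD, n = 3) and 34.0% ± 4.01 (SD, n = 3), and the difference in log2 odds was -0.85 (SE 0.46, adjusted p 0.524, limma). As the printed start shows, the reading frame meets a stop at the third codon of this intron.

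The last 628 nucleotides of Srsf5 intron 5 formed a second event, retained at 95.8%, 96.4% and 95.7% in room air and at 86.4%, 91.4% and 93.4% in cigarette smoke, again without overlap (adjusted p 0.476, limma). An acceptor within the intron, singled out after its values were seen, was used at 34.2%, 32.7% and 26.3% in room air and at 22.6%, 20.4% and 26.6% in cigarette smoke. A longer form of intron 1, which precedes the start codon, had 8.33%, 9.82% and 9.52% in room air and 0%, 6.45% and 9.73% in cigarette smoke. Both of these had overlapping groups.

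Srsf10 intron 2, the intron that begins with AT, was retained at 14.8%, 18.6% and 15.1% in room air and at 7.69%, 5.88% and 6.00% in cigarette smoke. The groups were well apart, with means of 16.2% ± 2.11 (SD, n = 3) and 6.52% ± 1.01 (SD, n = 3), and the difference in log2 odds was -1.35 (SE 0.44, limma p 0.0192, adjusted p 0.349). Intron 5 had 14.8%, 14.3% and 9.80% in room air and 7.69% and 4.76% in replicates 2 and 3 of cigarette smoke. The first 152 nucleotides of intron 5, an intron of their own in other transcripts, had 15.0%, 17.2% and 11.4% in room air and 9.09% and 5.56% in the same smoke libraries. Cigarette smoke replicate 1 had no value in either event, and the smoke levels present were below those in room air.

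Srsf1, a founding member of the family, had a pair of introns in its coding part with lower means after smoke. Intron 2 was retained at 9.09%, 20.0% and 15.8% in room air and at 0%, 8.70% and 5.45% in cigarette smoke, without overlap (difference in log2 odds -2.11, SE 0.96, adjusted p 0.476, limma). Without cigarette smoke replicate 1, again at 0%, the difference was -1.08, and with a pseudocount of 5 percentage points it was -1.27. Intron 3 was retained at 35.0%, 27.6% and 24.3% in room air and at 12.5%, 17.6% and 25.0% in cigarette smoke, where replicate 3 lay inside the room air range.

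The intron inside the 3′ untranslated part of exon 4 of Srsf1 (chr11:88050096-88050976, plus strand, 881 nucleotides) went the other way. It is spliced out in transcripts annotated as nonsense-mediated decay, and was kept at 82.3%, 73.7% and 79.2% in room air and at 88.5%, 91.8% and 86.2% in cigarette smoke. Every smoke library was above every room air library, with means of 78.4% ± 4.39 (SD, n = 3) and 88.8% ± 2.83 (SD, n = 3) and a difference in log2 odds of 1.08 (SE 0.48, limma p 0.0615, adjusted p 0.476). All smoke values were above all room air values in 0.484% of the retained introns of the table, and in 4.76% of the 63 that lie in a 3′ untranslated exon.

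Srsf2 had the same layout in its last exon. The intron inside the 3′ untranslated part of exon 3 (chr11:116850354-116850855, minus strand, 502 nucleotides) was kept at 71.4%, 66.9% and 71.2% in room air and at 71.4%, 77.2% and 75.1% in cigarette smoke, with a higher mean after smoke but the same value in replicate 1 of each group. It and the Srsf1 intron were the only 2 of the 19 with a higher mean, and both of the member introns in a 3′ untranslated exon, where 33.3% of the 63 such introns of all genes had a higher mean. The adjusted p of the Srsf2 intron was 0.721 with limma.

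Intron 2 of Srsf2 (chr11:116850962-116852020, minus strand, 1059 nucleotides) also follows the stop codon, but lies between exons and was lower after smoke. It was retained at 32.7%, 35.6% and 24.2% in room air and at 17.4%, 17.1% and 23.2% in cigarette smoke, with a difference in log2 odds of -0.87 (SE 0.47, adjusted p 0.524, limma). The 686 nucleotides at its 3′ end were kept at 88.6%, 89.9% and 85.1% in room air and at 78.6%, 84.2% and 84.5% in cigarette smoke. Neither of these events had overlapping groups.

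Intron 1 of Srsf2, in the coding part, was nearly always removed. Its retention was 9.09%, 6.90% and 2.70% in room air and 0%, 0% and 2.17% in cigarette smoke, with a difference in log2 odds of -2.26 (SE 0.71, limma p 0.0160, adjusted p 0.329). As 2 smoke values are 0%, its size depends on the pseudocount, with -2.89 at 0.5 and -1.03 at 5 percentage points. Antisense genes Mettl23 and Mfsd11 overlap the Srsf2 locus, and Gm11508 that of Srsf1. The libraries were made with a directional kit, but whether strand was used in the authors' counting is not given in the sources used here.

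**Figure D4:**
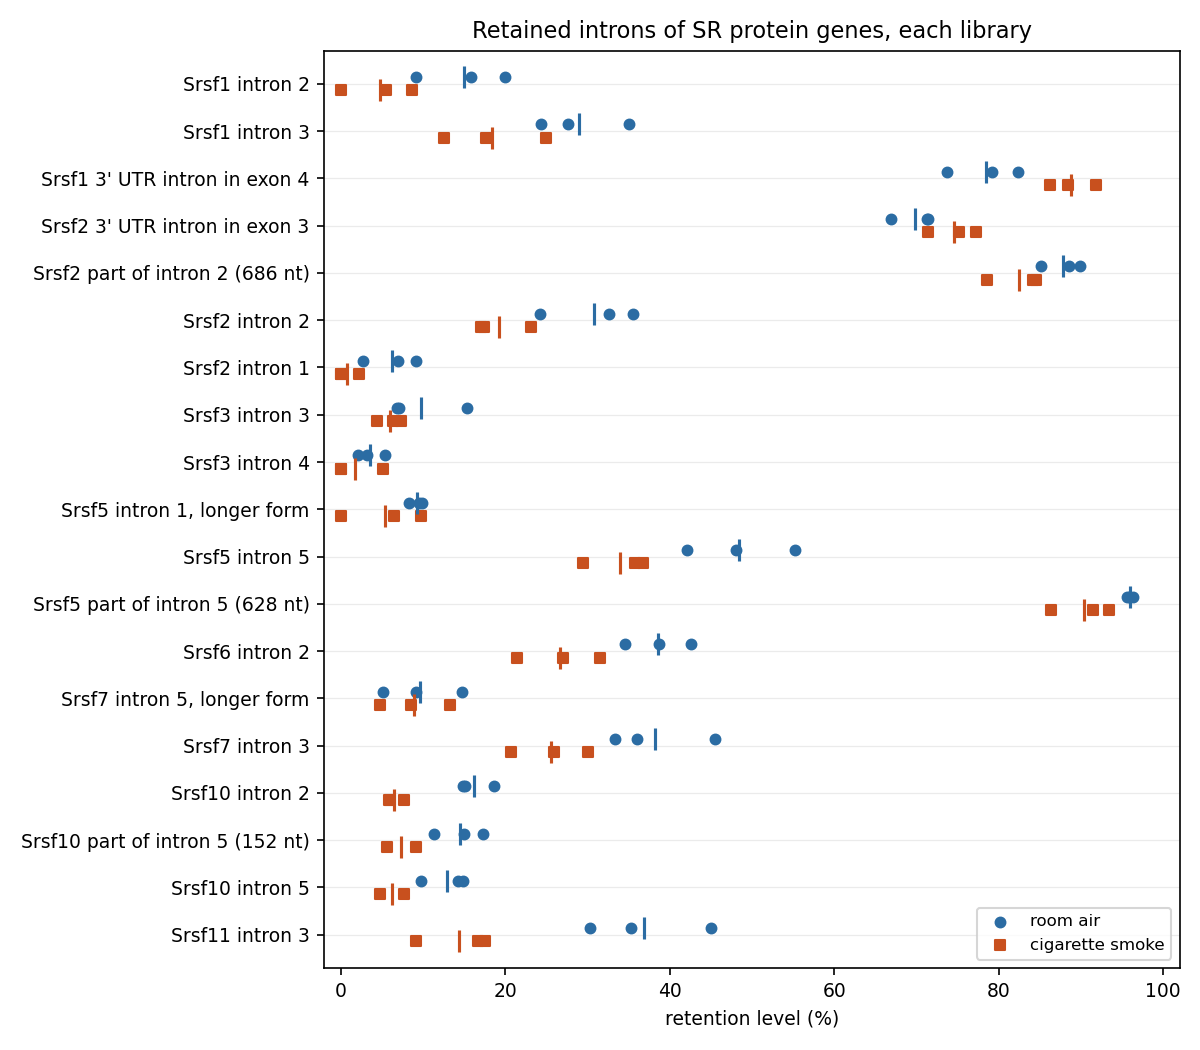
Retention level of the 19 introns of SR genes in each library, in percent. Circles are room air, squares cigarette smoke and vertical marks the group means; the introns in the 3′ untranslated exons of Srsf1 and Srsf2 have the higher mean after smoke (88.8% against 78.4% for Srsf1), and Srsf11 intron 3 has the widest gap, 36.9% against 14.4%.

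The rMATS comparison, made by the authors from the junction and intron reads, listed 9 introns of members, and 3 had a false discovery rate under 0.05, beside 14.5% of the 3887 introns in the authors' deposited table. That table does not say which group each of its sample sets is, so its sign has no direction between room air and smoke here. Of all introns listed, 13.8% passed with the higher level in set 1 and 0.72% with the higher level in set 2. Srsf2 intron 2 was 12.2 percentage points higher in set 1 (false discovery rate 0.000128 in the authors' deposited table), and Srsf5 intron 5 was 9.8 points higher in set 1 (0.0328). The Srsf1 intron in the 3′ untranslated exon had the opposite sign to the other introns that passed, with a set 1 minus set 2 difference of -13.5 points (false discovery rate 0.00069 in the authors' deposited table).

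The other 6 introns did not pass in the authors' deposited table. The Srsf2 intron in the 3′ untranslated exon had -5.9 points (false discovery rate 0.116), Srsf6 intron 2 had 5.8 points (0.463), and the stretch between the poison exons of Srsf11 had 13.2 points (0.735). The stretches from its poison exons of 117 and 109 nucleotides to the next coding exon had -3.4 and 0.4 points there (both with a false discovery rate of 1). A 378-nucleotide intron inside exon 4 of Srsf1 had 0.3 points. For the 5 introns listed in both tables, the JuncBASE smoke minus air differences were 10.4 points (Srsf1), 4.72 and -11.6 points (Srsf2), -14.5 points (Srsf5) and -11.9 points (Srsf6). The libraries behind the rMATS sets are not named, so the tables are not taken as separate evidence.

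The choices that follow, given to complete the genes, had overlapping groups. For the donors of Srsf5 exon 1, the main junction had a mean of 62.5% ± 5.44 (SD, n = 3) in room air and 64.7% ± 4.03 (SD, n = 3) in cigarette smoke. For the acceptors before exon 5 of Srsf10, the main junction had 79.5% ± 3.55 (SD, n = 3) and 73.7% ± 5.03 (SD, n = 3). For the donors of Srsf7 exon 5, the main junction had 63.1% ± 6.49 (SD, n = 3) and 67.8% ± 7.00 (SD, n = 3). The acceptor inside Srsf10 intron 5, in place of the one at its end, was used at a mean of 42.8% ± 2.95 (SD, n = 3) in room air and 47.1% ± 2.50 (SD, n = 3) in cigarette smoke by junction reads, and the full splice of Srsf5 intron 5 made up 49.9% ± 4.91 (SD, n = 3) and 57.6% ± 2.76 (SD, n = 3) of its donor choices with exon reads. By junction reads alone that Srsf5 splice had 94.7% ± 1.46 (SD, n = 3) and 92.0% ± 2.70 (SD, n = 3), so its level and the sign of its difference depend on the measure. Of the 46 member events that are not retained introns, 28 had a lower mean after smoke, beside 55.1% of such events in the table, and 3 had all smoke values below all room air values, beside 10.6%.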

How the data were processed

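Libraries were made from total RNA with a directional kit and read on an Illumina instrument, per the labels' protocols. STAR, DESeq2, SAMtools 1.9, bedtools 2.27.1 and the build mm10 are named in the submitters' processing notes; other settings are not given in the sources used here. The signal columns deposited by the authors are means of size-factor-normalized counts per group. The log2 fold change, its standard error and the Wald score are the authors', from a fit to 24 libraries of which 18 are not analysed here, as are all p-values deposited with them. JuncBASE levels in percent per library, and its difference of medians, were also deposited, as were rMATS differences, of which 6 columns of per-sample values were not used. Depth per library is unknown.

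The members and lists were chosen with earlier results of these data known. Expression was described from the authors' comparison, since the deposited table holds no value per library. Event levels p were tested as log2((p + 1)/(100 - p + 1)) with limma 3.58.1 in R 4.3.3 for events with at least 2 values in each group, adjusted by Benjamini-Hochberg over 10376 events. The trend with GC content and length was fitted by splines of 4 degrees of freedom (statsmodels 0.14.6), and p-values came from its residuals over the authors' standard errors. On simulated data of 12071 genes it found 72.0% of 200 genes given a log2 change of 1 and 98.0% of 200 given a change of 2; smaller changes, such as those of the members, were not simulated. Exons, introns and sequences came from GENCODE M21; introns are numbered along the principal transcript of each gene. Ensembl versions of Srsf3 and Srsf7 differ between that annotation and the authors' table. Of the 65 events, 59 also carry a member's locus in the authors' annotation; 1 event inside Srsf1 without a strand was left out. Described by name were all members, every poison exon event, every intron with an rMATS false discovery rate under 0.05, every event with an unadjusted limma p under 0.05, up to 10 further introns of highest level, and list genes with an adjusted p under 0.05; other events were chosen after their values were seen, to complete a gene or because their groups did not overlap. Alternatives were the pseudocount, filters, a replicate block, the trend removal, other thresholds and each library left out; the counts without cigarette smoke replicate 1 were added after the data were seen.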

Additional observations from a re-analysis of the deposited data

How the results depend on the processing

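The count of SR genes called in the authors' expression comparison was 1; it was 0 with the GC and length trend removed and 2 at an adjusted p under 0.1. That removal reversed the log2 fold changes of Srsf1 (0.16), Srsf2 (-0.11) and Srsf3 (0.11). Member events called by limma ranged from 0 to 2 when each library was left out in turn, with 2 only without cigarette smoke replicate 3, and were 0 under both other pseudocounts, both filters and the authors' corrected p. The replicate numbers do not pair the libraries by the labels, and deviations of same-numbered libraries had correlations of 0.018, -0.040 and -0.089 over 5933 events; with the replicate block 0 member events were called (lowest adjusted p 0.608). Leave-one-out reversed the log2 odds difference of the longer form of Srsf7 intron 5 (-0.50 to 0.26, above 0 without room air replicate 2 and without cigarette smoke replicate 2) and of the Srsf11 form with both poison exons (-1.31 to 0.56, above 0 without cigarette smoke replicate 2). The cause was not tested. The mean retention difference of the member introns, -6.77 percentage points, ranged from -8.10 to -5.65 with a library left out. Of 9 rMATS introns, 2 instead of 3 passed at 10 points or at a false discovery rate under 0.01. With 3 libraries a group and unknown read counts, levels near 0% or 100% are the least certain. Simulated shifts of 2 log2 odds in 200 events, with the rest unshifted, were not recovered. In the data 89.9% of all introns had a lower mean after smoke, which that simulation does not copy. Without cigarette smoke replicate 3, Srsf3 intron 4 was called at -2.18. The simulation therefore sets no firm limit on the differences that could be detected.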
